A study of Mus musculus with 25 samples.

Results

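In mouse embryonic fibroblasts (MEFs), 990 of 2732 autosomal boundaries of topologically associating domains (TADs) had no counterpart in embryonic stem (ES) cells. They were selected on measured domain positions, as the starts and ends of domains in the authors' MEF list with no start or end of an ES domain within 40 kb on the same chromosome. By the same distance, 1742 MEF boundaries were shared with ES cells and 1036 ES boundaries were absent from MEFs (ES-only). ES positions within 40 kb of a shared MEF boundary but not identical to it count apart in the total of 4112 distinct positions in MEF or ES. The members were thus chosen by domains called from the Hi-C libraries of these cells, so the Hi-C values at MEF-only boundaries are given as a description, without a test. HiChIP for H3K27ac and for the transcription factor KLF4 came from other libraries and was not used in the choice.

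TADs are stretches of chromosome whose loci contact each other more often than loci outside. In the loop extrusion model, the cohesin ring reels in DNA until it meets CTCF bound at a boundary, and promoters of active genes also lie at many boundaries. A boundary keeps many enhancers in contact with promoters of their own domain and apart from those of the next. H3K27ac marks active promoters and enhancers, and KLF4 is one of the factors that turn fibroblasts into pluripotent cells.

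The MEFs came from rtTA3-OKSM embryos at E13.5, heterozygous for an Oct4-GFP reporter, the OKSM cassette and rtTA3. This cassette expresses Oct4, Klf4, Sox2 and Myc when doxycycline is given, and the series' design places it at the Col1a1 locus and the transactivator at Rosa26. MEFs without doxycycline were collected at passage 3, and the reprogramming cells were the same MEFs after 3 or 6 days of doxycycline with ascorbic acid, in bulk at day 3 and sorted for SSEA1 at day 6. ES cells were of the V6.5 line in 2i medium, and cells labelled TKO, an abbreviation the labels do not expand, were V6.5 cells in 2i with 0 or 24 h of doxycycline. MEFs and ES cells therefore differed in origin and medium as well as in cell type, and these cannot be told apart. Hi-C covered MEFs (2 libraries) and ES cells (2). H3K27ac HiChIP covered MEFs (2), ES cells (2) and TKO cells at 0 h (3) and 24 h (3), and KLF4 HiChIP covered day 3 (3), day 6 (4) and ES cells (4). No label says that replicates came from separate cultures or embryos, so the p-values measure the spread between these libraries, which may be technical.

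HiChIP libraries implied 48.7 to 181 M contacts, and listed interactions held medians of 11 to 47 counts per library. For Hi-C only the listed counts are known, 5.58 to 10.02 M per library. In ES KLF4, replicates 1 and 2 and replicates 3 and 4 did not differ beyond the sampling noise (chi-square per degree of freedom 1.01 and 0.966) while the other pairs did, so each pair was counted as 1 sample. The day 6 list was short, 3984 autosomal interactions against 23153 at day 3 and 24105 in ES. The labels matched their markers in H3K27ac: the bin of Nanog, a pluripotency factor, held 1 listed interaction in MEFs and 23 in ES cells. The bin of Thy1, a fibroblast surface protein, held 9 in MEFs and 0 in ES cells.

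The promoters of 4 genes that start within 40 kb of a MEF-only boundary show what lies beside them, and they were picked with their contacts known. Vim encodes the intermediate filament protein of fibroblasts, and its start lay 25.7 kb from the boundary at chr2:13600001. Utf1 encodes a chromatin factor of pluripotent cells, 23.9 kb from the boundary at chr7:139920001. Dnmt3b encodes a DNA methyltransferase of early development, 9.45 kb from the boundary at chr2:153640001. Srsf3 encodes a splicing factor, 7.34 kb from the boundary at chr17:29040001, where KLF4 contacts were among the densest of all MEF-only boundaries. Each line gives the 250 bases before the gene's start from RefSeq (GRCm38.p6), 5′ to 3′, with matches to the core of the KLF4 motif (CCNCNCCC or GGGNGNGG) in capitals.
Vim (chr2:13574061-13574310, plus strand): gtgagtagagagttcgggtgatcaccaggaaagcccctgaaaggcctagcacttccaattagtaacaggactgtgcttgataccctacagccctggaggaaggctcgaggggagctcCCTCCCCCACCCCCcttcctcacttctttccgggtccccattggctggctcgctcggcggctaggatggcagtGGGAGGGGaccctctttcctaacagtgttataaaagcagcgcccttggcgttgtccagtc
Utf1 (chr7:139943606-139943855, plus strand): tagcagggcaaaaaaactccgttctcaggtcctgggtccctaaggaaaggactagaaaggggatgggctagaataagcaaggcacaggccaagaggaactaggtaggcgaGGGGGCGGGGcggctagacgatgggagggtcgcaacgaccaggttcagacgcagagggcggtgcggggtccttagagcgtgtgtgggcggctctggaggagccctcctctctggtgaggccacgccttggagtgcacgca
Dnmt3b (chr2:153649199-153649448, plus strand): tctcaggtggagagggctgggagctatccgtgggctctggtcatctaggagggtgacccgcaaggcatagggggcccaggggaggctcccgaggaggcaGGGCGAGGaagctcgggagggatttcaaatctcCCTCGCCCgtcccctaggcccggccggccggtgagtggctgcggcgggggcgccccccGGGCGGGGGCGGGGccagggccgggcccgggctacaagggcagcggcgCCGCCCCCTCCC
Srsf3 (chr17:29032410-29032659, plus strand): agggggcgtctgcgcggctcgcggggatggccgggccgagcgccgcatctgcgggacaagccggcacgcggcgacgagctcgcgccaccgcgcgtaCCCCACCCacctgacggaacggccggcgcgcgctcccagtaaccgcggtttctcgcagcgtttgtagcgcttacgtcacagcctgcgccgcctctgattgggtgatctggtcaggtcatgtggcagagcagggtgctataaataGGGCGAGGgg
The Dnmt3b promoter held 7 matches, which overlap in 4 runs of capitals, and the Vim promoter held 4 in 2 runs. Utf1 held 2 overlapping matches and Srsf3 held 2 apart. Counting both strands, the KLF4 core occurred in 60.5% of the 1002 promoters of protein-coding genes within 40 kb of a MEF-only boundary in 58.3% of those near shared boundaries, in 54.0% of those near ES-only boundaries and in 52.9% of all 16457 promoters of this length. A core of the CTCF motif, searched on both strands, was in none of the 4, in 1.90% of the 1002, in 3.07% and 2.72% near shared and ES-only boundaries and in 2.05% of all. A match is a description of these letters and not a bound site.

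MEF-only boundaries lay well inside ES domains. The median distance to the nearest ES boundary was 400 kb (quartiles 240 and 560 kb), and 65 were more than 1000 kb away. At the threshold, 338 MEF boundaries lay just outside the choice at 40 kb from an ES boundary, and 51 lay just inside it at 80 kb. An ES domain held 981 of the 990, with a median length of 1280 kb, while the median over all ES domains was 600 kb. A long domain is more likely to hold any given position, so the 2 medians are not a like comparison. Of the ES domains, 555 held 1 MEF-only boundary, 134 held 2, 35 held 3 and 12 held 4 or more. The most, 6, fell in the ES domain chr4:3560001-8400000, a stretch of 4840 kb. Among MEF domains, 355 had a MEF-only boundary at both ends and 1256 at 1 end. Of the 990 boundaries, 14 were the first or last MEF boundary of a chromosome and did not lie between MEF domains. The other 976 ended a MEF domain and started the next.

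**Figure D1:**
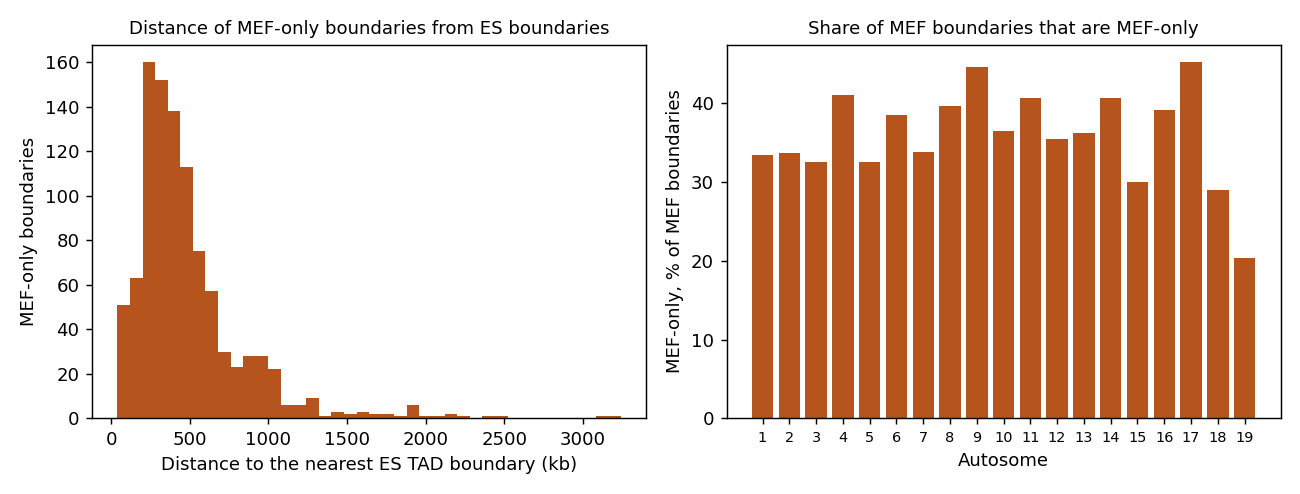
Left, histogram of the distance in kb from each of the 990 MEF-only boundaries to the nearest ES TAD boundary, in steps of 80 kb; right, bars of the percent of MEF boundaries that are MEF-only on each autosome. Most lie within 1000 kb of an ES boundary, and the share runs from 20.3% on chromosome 19 to 45.2% on chromosome 17.

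Every autosome held MEF-only boundaries. They made up 20.3% of MEF boundaries on chromosome 19 and 45.2% on chromosome 17, the lowest and the highest share. The MEF domain list has no chromosome X, which was not analysed here.

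Genes lay near MEF-only boundaries more often than near ES-only ones. A bin within 40 kb carried a gene name in the authors' TKO annotation at 433 MEF-only boundaries (43.7%), against 25.2% of ES-only and 37.8% of shared boundaries. The start of a protein-coding RefSeq gene lay within 40 kb of 550 of them (55.6%), against 40.6% and 50.9%. A protein-coding gene spanned 539 (54.4%), against 39.8% and 48.4%. An H3K27ac ChIP peak of TKO cells at 0 h lay within 40 kb of 543 (54.8%), against 35.5% and 48.7%, and at 24 h of 535. The peak was at 0 h only for 12 and at 24 h only for 4. These shares are descriptions and the differences were not tested, and the TKO annotation covers only bins that enter a TKO interaction.

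A small number of genes of fibroblast or stem cell identity lay beside these boundaries. In the TKO annotation, 924 of 12334 genes (7.49%) fell within 40 kb, and so did 2 of 25 pluripotency genes (Utf1 and Dnmt3b) and 2 of 9 fibroblast and matrix genes (Vim and Loxl1). None of 7 mesenchymal and limb factors, 4 AP-1 genes or 9 genes of architectural proteins did. By RefSeq starts, 6.09% of all genes fell within 40 kb, as did 2 of 19 pluripotency genes, 2 of 17 fibroblast genes (Col3a1 and Vim) and 5 of 22 mesenchymal and limb factors. Those 5 were Twist1 and Zeb2, which drive mesenchymal states, Gli3, a Hedgehog effector, and the homeobox genes Shox2 and Meis1. Of 8 architectural genes 1 did (Pds5b, a cohesin regulator), and of 7 AP-1 genes 0.

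Contacts crossed MEF-only boundaries more often in ES cells than in MEFs, in both assays. Hi-C domains also chose the members, so a surplus of Hi-C crossings in ES cells is built into the choice. An interaction crosses when its 10 kb bins lie on either side of the boundary. In Hi-C, 796 listed interactions crossed in MEFs (0.380% of the list) and 3843 in ES cells (1.32%), a ratio of 4.83 where the whole lists differ by 1.39. In H3K27ac HiChIP, 366 crossed in MEFs (0.618%) and 1446 in ES cells (1.99%), a ratio of 3.95 against 1.23 for the whole lists. The corresponding ratios were 1.22 and 1.03 at ES-only boundaries, and 2.75 and 2.57 at shared boundaries. A surplus in ES cells was thus also present at boundaries shared within 40 kb. Shared boundaries were taken at their MEF position, which was also the ES position for 1398 of 1742. Contacts inside an ES domain can count as crossing at the others, and how far this raised the shared ratios was not tested. The difference between the 3 kinds of boundary was not tested. The H3K27ac libraries held 74.98 and 105 M contacts in MEFs and 166 and 168 M in ES cells, and lists were filtered within each cell type. With lists of equal length the ratio at MEF-only boundaries was 2.68 in Hi-C and 2.83 in H3K27ac. Among interactions that span the whole 80 kb window it was 2.67 in Hi-C and 2.32 in H3K27ac. At shared boundaries the whole-window ratios were 2.47 (17 and 42 interactions) and 15.5 (4 and 62). By this measure a surplus was thus not particular to MEF-only boundaries. At ES-only boundaries these ratios were 0.150 and 0.4865.

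Every library showed the difference, which in Hi-C only describes the data that chose the boundaries. Of listed Hi-C counts, 0.338% and 0.332% crossed MEF-only boundaries in MEF replicates 1 and 2, and 1.09% and 1.08% did in ES replicates 1 and 2. In H3K27ac, crossing counts made up 0.544% and 0.538% in MEFs and 1.67% and 1.67% in ES cells (0.541 ± 0.00399% and 1.67 ± 0.00402%, SD, n = 2 each). The H3K27ac groups did not overlap, and the two-sided exact permutation test gave p = 0.333, the smallest it can give for 2 against 2. Over interactions present in both lists the H3K27ac shares were much closer, 0.603% in MEFs and 0.723% in ES cells. At ES-only boundaries the same shares were 0.599 ± 0.00718% in MEFs and 0.511 ± 0.00147% in ES cells (SD, n = 2 each). TKO cells resembled ES cells in level, with 1.60%, 1.63% and 1.63% at 0 h and 1.43%, 1.43% and 1.43% after 24 h of doxycycline.

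**Figure D2:**
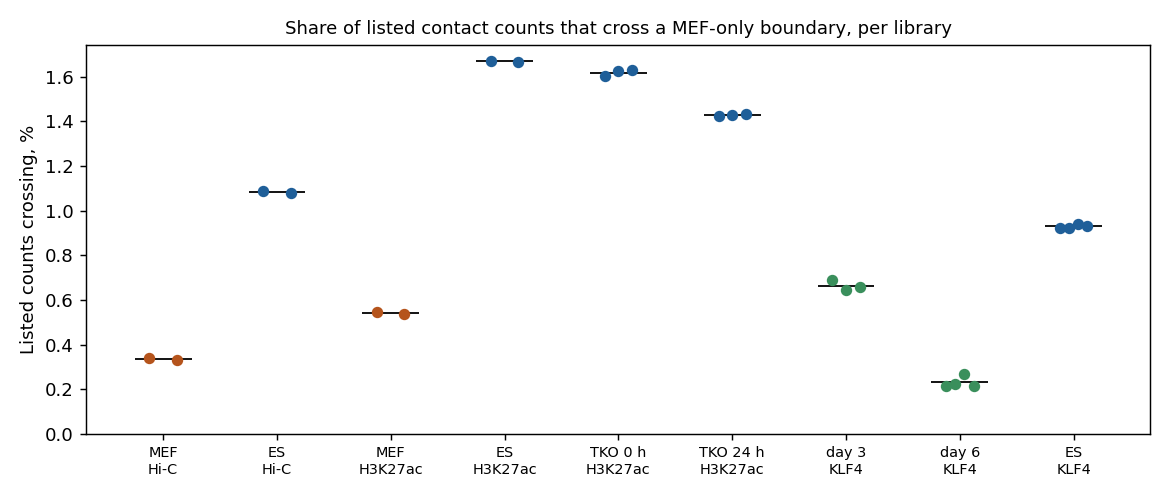
Percent of listed contact counts (vertical axis) that cross a MEF-only boundary, one point per library and a line at the group mean, for 9 groups. The 2 MEF H3K27ac libraries sit near 0.54% and the 2 ES libraries near 1.67%, while KLF4 runs from 0.214% in a day 6 library to 0.941% in an ES library.

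The surplus was spread over the autosomes, though in H3K27ac not over all boundaries. Hi-C again only describes the data that chose the boundaries. A larger share of the ES list than of the MEF list crossed MEF-only boundaries on 19 of 19 autosomes in Hi-C and on 19 of 19 in H3K27ac. At single boundaries, Hi-C had more crossing interactions in ES cells at 530, fewer at 92, an equal number above 0 at 29 and none in either list at 339. H3K27ac had more at 274, fewer at 84, an equal number at 18 and none at 614. At the 543 boundaries with a TKO H3K27ac peak at 0 h, 228 interactions crossed in MEFs and 1439 in ES cells. At the 447 without one the numbers were 138 and 7, with more in ES cells at 5 and fewer at 49. Without a peak the ratio was also below 1 at ES-only (0.0774) and shared boundaries (0.0940). TKO and ES cells are both V6.5, and peaks are known only for bins in TKO interactions, so this split is not independent of ES contacts. At 237 boundaries both assays had more in ES cells, and at 27 both had fewer. They disagreed in direction at 39 boundaries, with Hi-C higher and H3K27ac lower in ES cells at 32 and the reverse at 7. In ES cells 138 boundaries were crossed by at least 10 Hi-C interactions and 40 by at least 10 H3K27ac interactions, against 5 and 3 in MEFs.

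**Figure D3:**
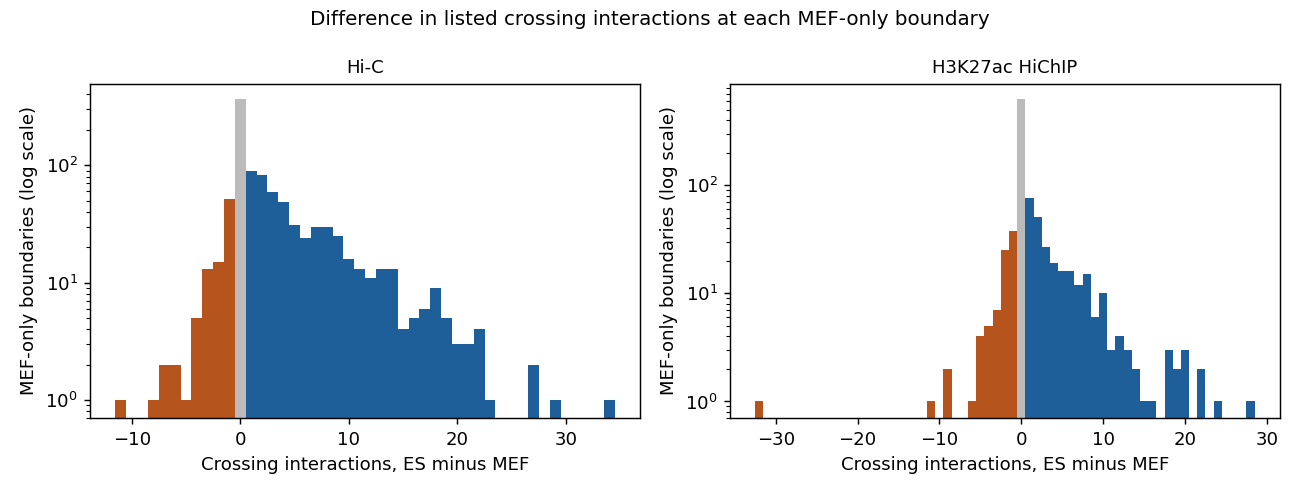
Histograms of the number of listed crossing interactions in ES cells minus that in MEFs at each of the 990 MEF-only boundaries, for Hi-C (left) and H3K27ac HiChIP (right), with the number of boundaries on a log axis. Positive values (blue) outnumber negative ones (orange) at 530 to 92 in Hi-C and 274 to 84 in H3K27ac, and grey is 0.

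Seen along the chromosome, Hi-C and H3K27ac contacts dipped at these positions in MEFs, and less so in ES cells. In Hi-C a deeper dip in MEFs is built into the choice of the boundaries. At the boundary itself a mean of 0.808 MEF Hi-C interactions spanned the position, 13.1% of the mean at 200 to 400 kb on either side, and 3.89 did in ES cells, 41.5% of their flanks. In H3K27ac the mean was 0.370 in MEFs (29.99% of the flanks) and 1.46 in ES cells (97.6%), where the mean at 100 kb on either side was higher, 1.83. At ES-only boundaries the order was different, with 44.6% of the flanks in MEFs and 36.0% in ES cells, and at shared boundaries 23.0% and 54.2%. KLF4 interactions at MEF-only boundaries stood at 42.4% of the flanks at day 3, 19.4% at day 6 and 73.5% in ES cells.

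**Figure D4:**
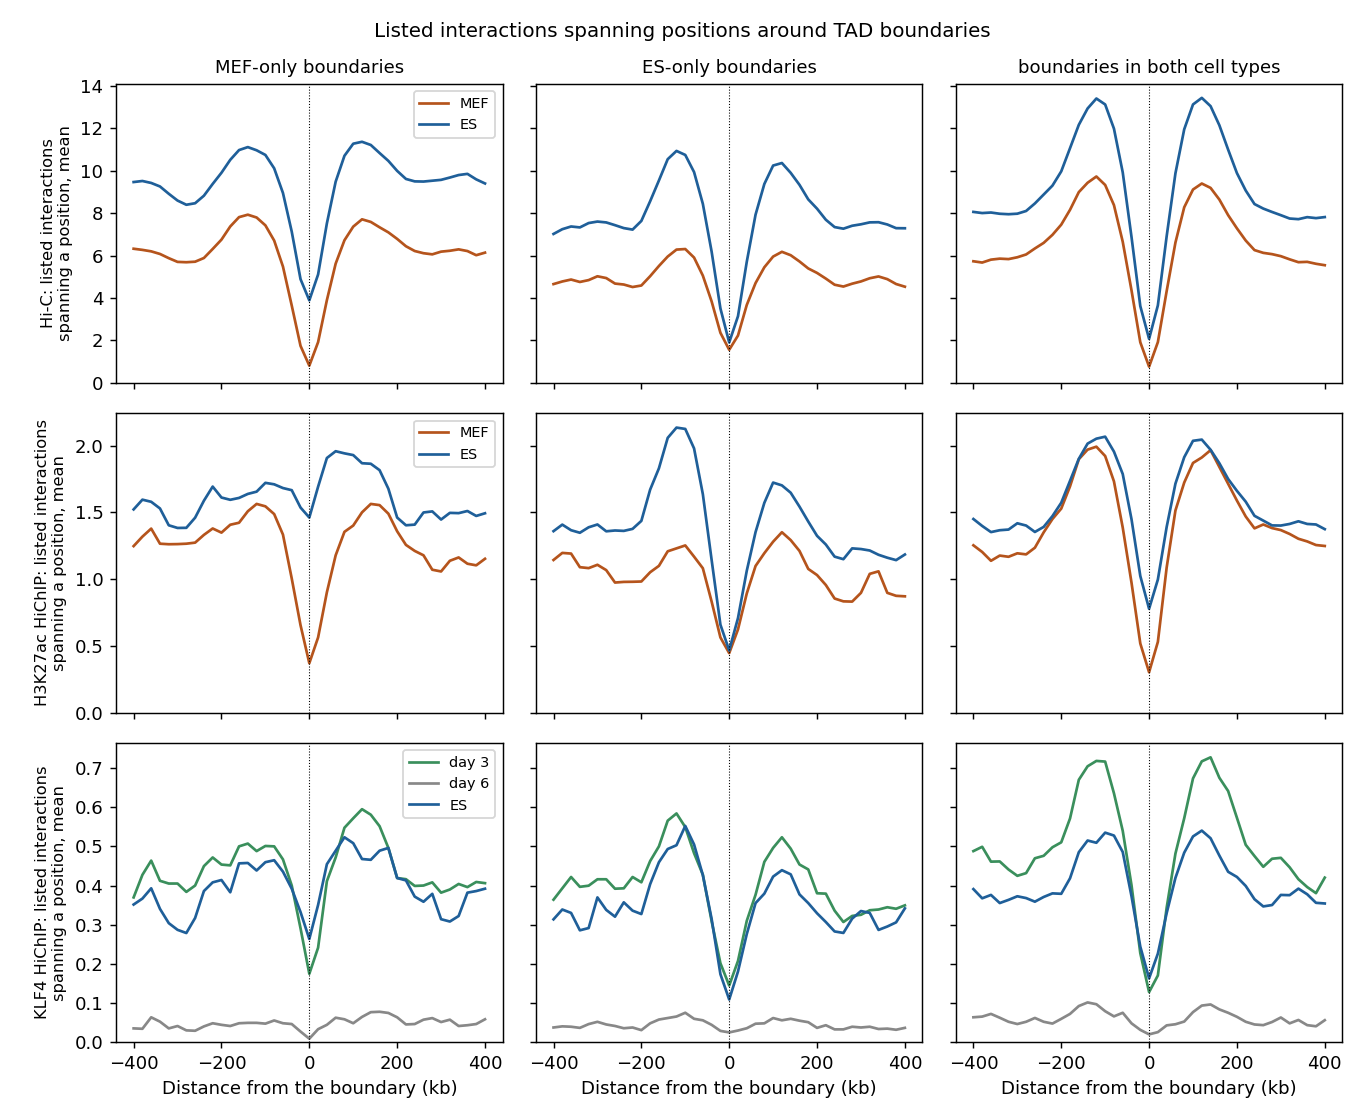
Mean number of listed interactions that span a position (vertical axis) against its distance in kb from the boundary, in Hi-C (top), H3K27ac (middle) and KLF4 (bottom), at MEF-only, ES-only and shared boundaries (left to right). At MEF-only boundaries the ES H3K27ac line dips to 1.46, near its level at 200 to 400 kb, while the MEF line falls to 0.370.

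The crossing Hi-C and H3K27ac contacts were longer than their lists, with medians of 60 kb or less. A longer interaction is more likely to span any given position, so this is not a trait of these boundaries. At ES-only and shared boundaries crossing medians were also longer, 60 and 80 kb in MEF Hi-C and 40 and 40 kb in ES H3K27ac. Crossing H3K27ac interactions had a median span of 30 kb in MEFs and 40 kb in ES cells, against 20 and 30 kb in the whole lists. Crossing Hi-C interactions had 50 and 60 kb, against 30 and 40 kb. By span, 1.99% of listed ES H3K27ac interactions of 20 to 40 kb crossed a MEF-only boundary against 0.558% in MEFs, and 2.98% against 0.510% of those of 50 to 90 kb. At 100 kb and over the shares were 3.25% and 1.91%. The ES share was the larger one in each of these classes.

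The ES to MEF ratio of crossings went with gene content at all 3 kinds of boundary. In Hi-C this only describes the data that chose the boundaries. At the 440 MEF-only boundaries with no protein-coding start within 40 kb, a mean of 0.782 Hi-C interactions crossed in MEFs and 2.19 in ES cells. At the 99 with 3 or more starts the means were 0.626 and 8.10, and none of the 99 had fewer in ES cells. In H3K27ac the means went from 0.354 in MEFs and 0.550 in ES cells without a start to 0.596 and 3.79 with 3 or more. Shared boundaries with 3 or more starts had means of 0.919 and 4.21 in Hi-C and of 0.838 and 3.48 in H3K27ac. From no start to 3 or more, the ratio at shared boundaries went from 1.91 to 4.58 in Hi-C. In H3K27ac it went from 1.86 to 4.16. At ES-only boundaries it went from 0.779 to 2.30 in Hi-C and from 0.513 to 2.33 in H3K27ac. The rise was thus not particular to MEF-only boundaries, and it was not tested.

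Every class of distance to the next ES boundary showed a surplus in ES cells, which for Hi-C is set in part by the choice. Hi-C crossing was higher in ES cells by 5.81-fold at MEF-only boundaries up to 200 kb from an ES boundary, and by 3.997-fold, 5.50-fold and 5.45-fold at those over 200 to 400 kb, over 400 to 1000 kb and over 1000 kb away. For H3K27ac the ratios were 7.98, 3.06, 3.24 and 7.78, the last from 9 and 70 interactions.

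Contacts that end beside these boundaries, those that also cross included, were more numerous in ES cells too, by less. Hi-C interactions with a bin within 40 kb numbered 9385 in MEFs and 18428 in ES cells, a ratio of 1.96. H3K27ac interactions numbered 2886 and 6024, a ratio of 2.09. The whole lists differ by 1.39 and 1.23. At shared boundaries the ratios were 1.67 and 1.47, and at ES-only boundaries 1.54 and 1.31. Of listed H3K27ac counts, 4.56 ± 0.0299% ended there in MEFs and 8.09 ± 0.00638% in ES cells (SD, n = 2 each; exact permutation p = 0.333, two-sided).

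Strength was tested only for interactions in both lists, as were 120 of the H3K27ac interactions that crossed a MEF-only boundary. The number of H3K27ac interactions called was close to the background, but those crossing a MEF-only boundary were mostly stronger in ES cells. Of the 120, 39 were called at an adjusted p under 0.05 (edgeR's quasi-likelihood test, Benjamini-Hochberg over all 17901 tested), where 32% of all interactions were called. They comprised 34 higher and 5 lower in ES cells, against 17.6% and 14.4% of all interactions tested. The median log2 change of the 120 was 0.22, against -0.04 for all. Of 1052 interactions ending within 40 kb, 345 were called, 241 higher and 104 lower, with a median of 0.08. For comparison, 7 of 74 interactions crossing ES-only boundaries were called higher and 14 lower, and 44 and 11 of 178 crossing shared boundaries. With contact totals in place of TMM factors the median of all interactions moved to 0.21, the 120 had a median of 0.46 with 45 called, all 45 higher, and 346 of those ending nearby were higher and 61 lower. By that scaling 27% of all interactions were called higher and 7.97% lower, so a lean towards ES cells was present in the whole list too. In Hi-C, where no test is given, the 321 crossing interactions in both lists had a median log2 change of 0.03. Without replicate 2 of MEF H3K27ac the H3K27ac calls fell to 24 crossing (20%) and 194 ending nearby (18.4%), beside 18.6% of all interactions.

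The called crossing interactions that changed most, picked with their values known, lay within or between genes. On chromosome 17, the bin of Cdc5l, a spliceosome component, contacted the next bin with 15 and 34 counts in MEFs and 198 and 218 in ES cells, across the boundary at chr17:45440001. Its log2 change was 1.94 with a standard error of 0.193 and an edgeR adjusted p of 9.31e-12. Inside Atf1, a CREB family factor, bins starting at 100230001 and 100250001 of chromosome 15 went from 18 and 25 counts to 131 and 152. Their log2 change was 1.57 with a standard error of 0.212 (edgeR adjusted p of 3.99e-08). The 5 crossing interactions called lower in ES cells had bins over Scap and Ptpn23, Ercc1 and Ppp1r13l, Arid5b, Pkm and Gramd2, and Sike1. At Arid5b, a chromatin-binding factor, the raw counts were 25 and 55 in MEFs and 50 and 54 in ES cells, in libraries of 74.98 and 105 M contacts (MEFs) and of 166 and 168 M (ES cells). None of the 5 was called with contact totals in place of TMM factors, where their adjusted p ran from 0.0646 to 0.196 in edgeR.

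The largest single changes were among the more numerous interactions that ended beside the boundaries, although their median was smaller than that of the crossing ones (0.08 against 0.22). A group of bins around Septin1, a septin cytoskeleton gene, on chromosome 7 gave 4 of the 6 largest increases. The pair of bins starting at 127210001 and 127220001 had 22 and 41 counts in MEFs and 677 and 728 in ES cells, a log2 change of 3.33 with a standard error of 0.142 (edgeR adjusted p of 6.04e-25). The bin of Pml, the scaffold of nuclear bodies, and a bin 30 kb away went from 16 and 26 counts to 231 and 239. Of the 6 largest decreases, the first joined the bin of Fosb, an AP-1 component, to the next bin, with 67 and 126 counts in MEFs and 47 and 53 in ES cells. Its log2 change was -2.08 with a standard error of 0.178 (edgeR adjusted p of 7.28e-14). Others lay over Pxdc1, Syne3, Smim3 and Oacyl.

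Single boundaries, picked for the size of their difference, showed how far it went. The ES H3K27ac list held 5655 interactions on chromosome 17 and 2447 on chromosome 1, so this ranking leans to chromosomes with more listed interactions. The largest gain in crossing H3K27ac interactions was at chr17:33880001, inside the kinesin gene Kifc1 and beside Daxx, a histone H3.3 chaperone, and Tapbp, which loads antigen-presenting molecules. No listed interaction crossed in MEFs and 28 did in ES cells, and their summed CPM was 132.5 and 137 in the 2 ES libraries. Hi-C crossings there went from 0 to 10, and TKO cells had 20 at 0 h and 17 at 24 h. The next was inside Morc1, a germ cell gene, at chr16:48600001, 80 kb from an ES boundary. It had 0 in MEFs and 24 in ES cells (143 and 136 CPM), where no listed Hi-C interaction crossed in either. At chr6:82720001, beside the DNA polymerase subunit gene Pole4, 0 became 22.

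At chr17:29040001, inside Srsf3 and beside the kinase gene Stk38, the numbers were 4 in MEFs (21.1 and 25.45 CPM) and 26 in ES cells (140 and 137.5 CPM). Beside Smarcad1, a chromatin remodeller, chr6:65040001 had 0 and 20 (170 and 159 CPM in ES cells), and no H3K27ac interaction of MEFs ended within 40 kb. An ES boundary lay 80 kb from it. Inside Atf1, chr15:100240001 had 4 in MEFs (26.7 and 26.2 CPM) and 24 in ES cells (213 and 210 CPM).

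The opposite pattern was found at fewer boundaries. Of the 84 with fewer H3K27ac crossings in ES cells, 47 had no protein-coding start within 40 kb, as did 47 of the 274 with more. At chr15:62320001, with no annotated gene within 40 kb, 32 H3K27ac interactions crossed in MEFs (218 and 247.5 CPM) and 0 in ES cells. Hi-C crossings there were 3 and 4, so the difference in H3K27ac had no counterpart of its size in Hi-C. At chr9:41600001, also without a gene, 11 became 0, and Hi-C went from 5 to 0. KLF4 crossed this position with 7 interactions at day 3 and 0 in ES cells. Inside Rad51b, a recombination gene, chr12:79600001 had 9 and 0, Hi-C 16 and 5, and KLF4 7 at day 3 and 0 in ES cells. Beside Klf6, a relative of Klf4, chr13:5880001 had 11 in MEFs (48.9 and 55.0 CPM) and 2 in ES cells (11.4 and 10.8 CPM). Inside Lrmda, chr14:23040001 had 6 and 0, and chr13:16760001 had 5 and 0.

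**Figure D5:**
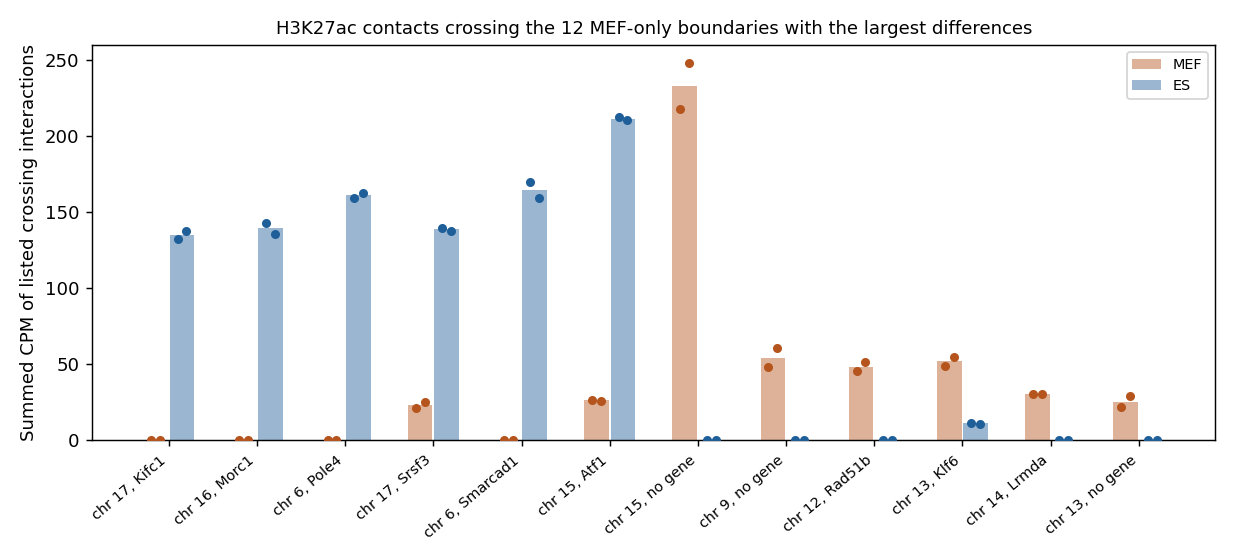
Summed CPM of listed H3K27ac interactions that cross each of the 12 MEF-only boundaries with the largest differences (6 in each direction), bars at the mean and points for the 2 MEF (orange) and 2 ES (blue) libraries. Each is named by its chromosome and a gene over or near it; a bar at 0 means that no crossing interaction was listed, as at Smarcad1 in MEFs, where the ES libraries have 170 and 159 CPM.

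The 4 largest gains in Hi-C lay inside or among genes, and 2 of the 4 positions had no protein-coding start within 40 kb (chr16:35320001 and chr12:3880001). Crossings went from 2 in MEFs to 36 in ES cells at chr6:72600001, inside Retsat, a retinol saturase, and beside Elmod3 and Tgoln1. They went from 1 to 30 at chr16:35320001, inside Sec22a, where no HiChIP list had an interaction. At chr7:30560001, among Kmt2b, a histone H3K4 methyltransferase, and the gamma-secretase gene Psenen, 2 became 29, with an ES boundary 80 kb away. Inside Dnmt3a, a DNA methyltransferase, 1 became 28 at chr12:3880001, the first listed MEF boundary of its chromosome and so not a border between MEF domains. H3K27ac crossings at these 4 were 2 and 6 at the most.

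H3K27ac contacts beside the list genes differed from gene to gene. At the Vim boundary, whose promoter is printed above, 10 H3K27ac interactions ended within 40 kb in MEFs (59.5 and 72.9 CPM) and 0 in ES cells, and 0 crossed in either. At the Col3a1 boundary, chr1:45320001, which lies inside this collagen gene, 4 and 0 ended. At the Dnmt3b boundary 0 ended in MEFs and 6 in ES cells (23.9 and 25.03 CPM), and Hi-C crossings went from 1 to 12. The Utf1 boundary had 2 (7.37 and 7.99 CPM) and 13 (73.1 and 76.3 CPM), and Hi-C crossings of 5 and 27. Near Loxl1, which cross-links elastin, and Pml, at chr9:58280001, 22 and 39 ended and 2 and 14 crossed. Gli3 had 3 and 0 ending and 2 and 0 crossing, and Meis1 had 1 and 0 ending. None ended or crossed in either cell type at Twist1, Zeb2, Shox2 and Pds5b, and 0 crossed at Col3a1 and Meis1.

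KLF4 contacts also crossed MEF-only boundaries more often in ES cells than at day 3 or day 6. They crossed 172 times at day 3 (0.743% of the list), 9 times at day 6 (0.226%) and 261 times in ES cells (1.08%), a ratio of 1.52 between ES and day 3 where the lists differ by 1.04, and of 29 between ES and day 6 where the lists differ by 6.05. Of those that span the whole 80 kb window there were 7 at day 3 and 3 in ES cells, so the direction turned there. At ES-only boundaries the ratio of ES to day 3 was 0.764 and at shared ones 1.29. More KLF4 interactions crossed in ES cells at 115 boundaries, fewer at 71, an equal number at 20 and none at 784, and the share was larger in ES on 16 of 19 autosomes, not on 4, 8 and 9. Of listed KLF4 counts, 0.691%, 0.645% and 0.656% crossed at day 3, and 0.214%, 0.225%, 0.269% and 0.215% at day 6. The 4 ES libraries had 0.924%, 0.923%, 0.941% and 0.930%. Day 3 and ES did not overlap, and the exact permutation test gave p = 0.2 (two-sided), the smallest possible with 3 samples against the 2 joined ES samples. Day 6 cells were also sorted, unlike day 3 cells, so time and sorting cannot be told apart, and no KLF4 list of MEFs without doxycycline was analysed here.

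Few KLF4 interactions in both lists differed in strength. Of 42 that crossed a MEF-only boundary 5 were called (edgeR, adjusted p under 0.05 over 7387 tested), where 7.2% of all were called, and of 426 that ended nearby 31 were called. The 5 were 3 higher and 2 lower in ES cells, against 3.02% and 4.18% of all tested, and the 31 were 12 higher and 19 lower. With contact totals in place of TMM factors these became 3 and 1, and 6 and 12, where 3.84% of all were called (1.73% higher and 2.11% lower). Without replicate 3 of day 3, 1 crossing (2.38%) and 9 ending nearby (2.11%) were called, beside 1.83% of all.

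The interaction between Gas2l1 and Ewsr1, an RNA-binding protein, crossed the boundary with 17, 33 and 41 counts at day 3 and 40, 25, 40 and 59 in the ES libraries, a log2 change of 1.02 with a standard error of 0.206 (edgeR adjusted p of 0.0002). The other called crossing interactions were higher in ES cells beside Efnb2, an ephrin ligand, and Zfp64, and lower beside Zbtb39 and Mesd, a chaperone of Wnt co-receptors. At Zbtb39 the counts were 16, 45 and 47 at day 3 and 16, 9, 8 and 18 in ES cells. Of those ending nearby, the largest increase involved Etnk1 on chromosome 6 and the largest decrease lay in Ston1 on chromosome 17, with 39, 54 and 63 counts at day 3 and 16, 16, 14 and 16 in ES cells.

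Some boundaries gathered many KLF4 contacts. CPM is relative to each chromosome, and the day 3 list held 2259 interactions on chromosome 19, 1855 on 17 and 596 on 1. Rankings by listed number are therefore not alike between chromosomes. At day 3 the most, 28, ended within 40 kb of chr19:42160001 beside Avpi1, Marveld1 and Zfyve27 (304, 289 and 239 CPM), and 11 did in ES cells (123, 113, 106 and 116 CPM). The Srsf3 boundary had 23 at day 3, 5 at day 6 and 20 in ES cells. It was the one boundary among the top 4 of both day 3 and ES cells. At chr12:86760001, inside Lrrc74a and beside Angel1, the numbers were 18 at day 3, 0 at day 6 and 13 in ES cells.

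In ES cells the most, 25, ended near chr17:28560001, inside the colipase gene Clps, against 10 at day 3. At chr19:45080001, beside Kazald1 and Sfxn3, 16 became 24, and crossing interactions went from 2 to 10. At chr16:38520001, inside Timmdc1, which assembles a respiratory complex, 2 at day 3 (8.12, 13.1 and 9.10 CPM) became 19 in ES cells (107, 139, 131 and 110 CPM). This position lay 80 kb from an ES boundary. Beside the list genes, KLF4 contacts ended at the Vim boundary 6 times at day 3 and 1 time in ES cells, and at Dnmt3b and Utf1 0 times at day 3 and 7 times each in ES cells. At Twist1 they ended 4 times at day 3 and 0 times in ES cells, at Meis1 3 and 0 times, and at Loxl1 2 and 5 times. None ended at either stage at Col3a1, Gli3, Zeb2, Shox2 and Pds5b.

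The 6 boundaries farthest from any ES boundary differed widely in listed contacts. Over all 65 that lay more than 1000 kb away, a mean of 0.677 Hi-C interactions crossed in MEFs and 3.69 in ES cells, against 0.808 and 3.89 over all members. The farthest, chr1:27880001, lay 3200 kb away in an ES domain of 6480 kb, and none of the 9 lists had an interaction crossing it or ending within 40 kb. The same held at chr14:84400001, 2400 kb away. At chr4:6200001 and chr14:9360001, 2200 and 2160 kb away, no H3K27ac interaction crossed, but at the latter 5 ended in MEFs and 3 in ES cells, with 7 KLF4 interactions at day 3 and 2 in ES cells. The position chr14:9360001 was the first listed MEF boundary of its chromosome, and no ES domain held it. At chr12:95720001, inside Flrt2, a cell adhesion gene, 2480 kb away, 5 KLF4 interactions ended at day 3 (46.9, 39.3 and 30.5 CPM) and 0 in ES cells. The boundary at chr8:72160001, 3120 kb away, lay beside the trafficking gene Rab8a and the tropomyosin gene Tpm4. There Hi-C crossings went from 0 to 12 and H3K27ac crossings from 0 to 7 (37.25 and 37.6 CPM in ES cells).

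Doxycycline in TKO cells went with fewer crossings. H3K27ac interactions crossed MEF-only boundaries 1743 times at 0 h (1.93% of the list) and 1338 times at 24 h (1.64%). At ES-only boundaries the numbers were 625 (0.692%) and 427 (0.523%), and at shared boundaries 1667 (1.85%) and 1264 (1.55%), so the fall was present at all 3 kinds. It was not tested.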

How the data were processed

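Contacts were measured by HiChIP and Hi-C in 25 mouse libraries. Alignment used Bowtie2 2.2.3 and mm10, per the submitters' processing notes, and the callers of contacts and domains are not given in the sources used here. Per the file headers, the authors deposited, for pairs of 10 kb bins, a raw count per library, its CPM and a ratio to an expected count, which was not used. CPM in HiChIP is relative to all contacts on that chromosome, as the deposited values show. The Hi-C column called CPM holds a deposited signal with chromosome scales of unknown origin. The authors filtered each list, so absence from a list does not give a value. Domains tile each chromosome in 1 list per cell type.

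The boundaries, gene lists and named items were chosen with earlier results of these data known. Named boundaries were the 6 farthest from an ES boundary, the 6 with the largest H3K27ac difference in each direction, the 4 with the largest Hi-C gain and the 4 with most KLF4 contacts at day 3 and in ES cells. Named interactions were the 6 (H3K27ac) or 4 (KLF4) called ones with the largest change in each direction, and others are said to be picked with their values known. Counts of interactions in both lists were tested with edgeR 4.0.16 in R 4.3.3 (quasi-likelihood, filterByExpr, TMM on contact totals, 2 groups per fit). On simulated data 75% of 200 interactions changed 2-fold were recovered in each comparison, of 17901 and of 7387 interactions, with 9 false calls in each. In the measured H3K27ac data 32% of interactions were called, a far larger share than was changed there. The simulation therefore does not show recovery under such wide change. Counts may include PCR copies, so SDs are of libraries, not of molecules. Alternatives were DESeq2 1.42.0, other scalings, filters, distances and left-out replicates. Gene starts and promoters came from RefSeq (GRCm38.p6, the assembly of mm10). Python 3.11.15 with pandas 2.3.3 joined the tables, and scipy 1.17.1 gave the exact tests.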

Additional observations from a re-analysis of the deposited data

How the results depend on the processing

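The ratios of crossing interactions stayed above 1 with other member thresholds and list lengths. With both lists reduced to equal length the ratio fell from 4.83 to 2.68 in Hi-C and from 3.95 to 2.83 in H3K27ac. When only interactions that span the whole 80 kb window counted, it was 2.67 in Hi-C, 2.32 in H3K27ac (3.95 before) and 0.429 in KLF4 (1.52 before), the last from 7 and 3 interactions. The alternatives for the H3K27ac and KLF4 ratios were chosen after seeing the data. The ES minus MEF difference in the share of H3K27ac counts that cross, 1.13 percentage points, was 0.947 with no ES boundary within 80 kb, 1.14 by CPM, 0.0138 over the whole window and 0.119 over interactions in both lists, and 1.12 to 1.13 without 1 replicate.

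Called interactions were fewer with DESeq2: 19 (all 19 higher in ES cells) in place of 39 crossing and 161 in place of 345 ending nearby for H3K27ac, and 0 and 3 in place of 5 and 31 for KLF4, where 5 of 42 crossing interactions had an unadjusted p under 0.05 by DESeq2 and 13 by edgeR. DESeq2 called 13.4% of all H3K27ac interactions, beside 15.8% and 15.3% of those crossing and ending nearby, and 0.866% of all KLF4 interactions, beside 0% and 0.704%. With anchors at least 50 kb apart they were 1 of 9, 37 of 171, 1 of 5 and 5 of 59, where 23.9% of all H3K27ac and 6.83% of all KLF4 interactions were called. Of interactions ending within 20 kb of the boundary, 177 of 571 in H3K27ac (31%) and 17 of 201 in KLF4 (8.46%) were called. Of all interactions 32% and 7.2% were called. KLF4 calls ending nearby fell to 18 with contact totals. Without 1 replicate the calls ranged from 24 to 36 and from 292 to 304 apart from 194 without MEF replicate 2 for H3K27ac, and from 1 to 6 and from 9 to 34 for KLF4. KLF4 calls ending nearby were 16, 18 and 9 without day 3 replicates 1, 2 and 3, and crossing calls 4, 3 and 1, while 3.44%, 3.47% and 1.83% of all KLF4 interactions were called.

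Replicate numbers were not taken to pair samples, since same-numbered libraries correlated by 0.0306 in H3K27ac and -0.0523 to 0.0208 in KLF4. With a replicate block the calls were 40 crossing (33.3%) and 352 ending nearby (33.5%) for H3K27ac, where 32.8% of all were called. For KLF4 with libraries 1 to 3 separate they were 4 (9.76%) and 20 (4.72%), where 4.62% of all were called. The same KLF4 fit without the block gave 5 and 28, beside 6.04% of all. No interaction in both H3K27ac or KLF4 lists that spans the whole window was tested, and the MEF domains have no chromosome X, so neither alternative gave a value. Filters within each list, and unknown Hi-C depth, limit what a missing interaction shows.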
